A study of Mus musculus with 28 samples.

Results

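The Tshz3 and Zfp536 locus is the stretch of mouse chromosome 7 from 37300001 to 39000000 (build mm9, counted from 1), 1.7 Mb or 8500 bins of 200 bp out of 13274547 bins in the whole segmented genome. It was chosen from the data: it holds the 1 Mb window with the largest difference in state U3 between treated and untreated SirT7-/- cells, so that difference is described here without a test and supports nothing. The series profiled fibroblasts of mouse embryos (MEFs) by chromatin immunoprecipitation and sequencing (ChIP-seq). These are primary cells of strain 129s2, described as 14.5 day cells and used at passages 3 to 4. They came in the genotypes wild type (WT) and SirT7-/- (KO), each labelled NT or GS. The labels do not spell these 2 terms out, and the title of the series concerns glucose starvation. How many embryos or cultures stood behind a library is not stated.

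H3K27me3 and macroH2A1.1 (mH2A1) were each precipitated in 2 libraries per genotype and treatment, and the authors deposited 1 segmentation per genotype and treatment, called WT-NT and WT-GS for wild type and KO-NT and KO-GS for SirT7-/- cells. Each segmentation assigns every bin to U1, U2, U3 or U4, and what the states stand for is not stated in the labels. In the initial 3 Mb of the autosomes and of X, which are unassembled, U1 filled all of 300000 bins in both WT segmentations and all but 2 in both KO segmentations, so U1 includes sequence without signal. U2, U3 and U4 together are called marked sequence below. SIRT7 was precipitated in 2 WT libraries per treatment, and 1 peak list per treatment was deposited. Since replicates had been combined in every file, the values carry no replicate error, and no difference between conditions could be tested. Read depth is unknown. KO cells had no SIRT7 ChIP, and loss of SIRT7 could not be checked in these files.

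H3K27me3 is the histone mark written by Polycomb repressive complex 2 (PRC2), and it covers silent developmental genes in broad domains. MacroH2A1.1 is a splice form of a histone H2A variant with a macrodomain that binds ADP-ribose, and macroH2A is often found together with H3K27me3. Tshz3 encodes a teashirt zinc finger transcription factor with roles in smooth muscle of the ureter and in neurons. Zfp536 encodes a zinc finger protein of the brain that restrains neuronal differentiation. SIRT7 is a nuclear sirtuin, an NAD-dependent deacylase.

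In RefSeq (assembly GRCm38.p6) Tshz3 and Zfp536 are neighbouring protein-coding genes on opposite strands, with Tshz3 on the plus strand and Zfp536 on the minus strand, so that they face each other at their 3′ ends. Their spans are 75.4 kb and 456 kb. No other protein-coding gene lies between them, and 11 long noncoding RNA genes do. Zfp507 and then Gm36722 precede Tshz3, and Uri1 and then Ccne1, the gene of cyclin E1, follow Zfp536. The segmentations are on mm9 and the gene table on GRCm38.p6, so start sites and gene bodies were not placed on the states, and results are given by mm9 position.

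PRC2 is known to settle at CpG-rich promoters, and the promoters of both genes are shown for that reason. Each runs from 250 bases before to 50 bases after the RefSeq start, 5′ to 3′ along the gene, with each CG dinucleotide in capitals.
Tshz3: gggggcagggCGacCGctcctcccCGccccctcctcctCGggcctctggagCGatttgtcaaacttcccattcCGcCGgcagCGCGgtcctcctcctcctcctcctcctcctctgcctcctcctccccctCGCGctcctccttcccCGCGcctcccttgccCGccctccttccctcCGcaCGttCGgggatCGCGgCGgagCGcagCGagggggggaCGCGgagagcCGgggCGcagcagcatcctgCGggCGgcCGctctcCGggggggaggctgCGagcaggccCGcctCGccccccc
Zfp536: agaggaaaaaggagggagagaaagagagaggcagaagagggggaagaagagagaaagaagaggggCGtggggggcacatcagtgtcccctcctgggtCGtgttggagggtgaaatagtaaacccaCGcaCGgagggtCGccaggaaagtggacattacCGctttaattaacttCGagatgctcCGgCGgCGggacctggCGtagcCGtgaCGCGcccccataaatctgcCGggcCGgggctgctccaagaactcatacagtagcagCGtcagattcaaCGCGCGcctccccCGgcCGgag
The Tshz3 promoter held 33 CG dinucleotides in 300 bases, more than 91.4% of 32841 RefSeq promoters, at a GC content of 76.0%. The Zfp536 promoter held 22, more than 76.9% of those promoters, at a GC content of 59.7%. The median over all promoters was 7 CG dinucleotides and a GC content of 52.7%. The sequence GGGCGG, searched on both strands, occurred 3 times in the Tshz3 promoter and 0 times in that of Zfp536, and 35.7% of all promoters held it. Neither promoter held CCAAT or TATAAA on either strand, which 37.4 and 13.6% of all promoters held.

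The locus was rich in U3 in all 4 segmentations. In WT, U3 made up 30.2% of the locus with NT and 32.6% with GS, and in KO 24.99 and 31.3%. Over chromosome 7 the same shares, in the same order, were 9.61, 10.5, 9.77 and 10.2%, and over the genome 7.88, 8.42, 9.04 and 8.50%. U3 was thus densest in WT-GS and thinnest in KO-NT, and all 4 shares of the locus lay above those of the chromosome. Of 1498 other windows of 1.7 Mb on the autosomes and X, 1441 had less U3 than the locus in WT-NT and 1448 had less in WT-GS.

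KO-NT stood apart from the other 3 segmentations through its unmarked sequence. U1 made up 45.8% (NT) and 48.6% (GS) of the locus in WT, and 65.1% (NT) and 47.9% (GS) in KO. The marked share was accordingly 54.2, 51.4, 34.9 and 52.1%. U2 made up 21.3% (NT) and 17.0% (GS) in WT, and 9.02% (NT) and 18.4% (GS) in KO. U4 was rare and lay in short pieces, with 2.74% (NT) and 1.78% (GS) in WT, and 0.906% (NT) and 2.31% (GS) in KO. KO-NT had the least of each marked state, and KO-GS differed from WT-GS by at most 1.39 percentage points in each of the 4 states. KO-NT also had the least marked sequence over the genome, at 26.5% against 29.5 and 29.9% in WT and 27.3% in KO-GS. The part of that genome-wide difference in the values of the locus was not tested. For U3 alone KO-NT had the highest share over the genome, 9.04% against 7.88 and 8.42% in WT and 8.50% in KO-GS. Over the autosomes alone WT-GS had the highest, 8.40% against 7.69% in WT-NT, 8.30% in KO-NT and 8.23% in KO-GS. KO-NT and KO-GS form the contrast that chose the locus. The low shares of KO-NT and the closeness of KO-GS to WT-GS therefore support nothing.

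**Figure D1:**
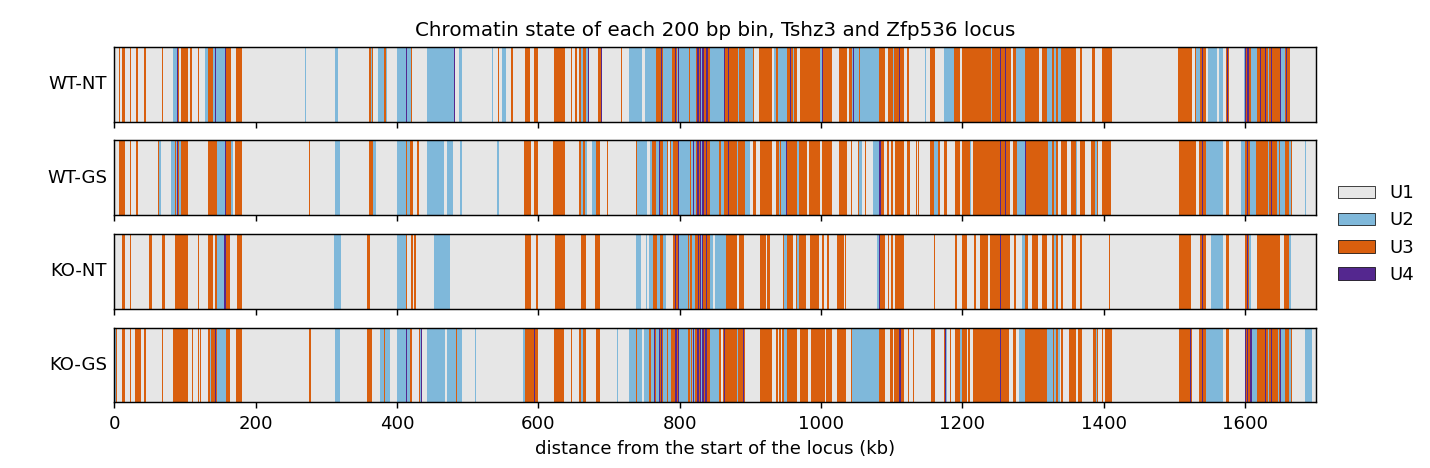
State of each 200 bp bin along the 1700 kb of the locus (x axis, distance from its start in kb), with 1 row for each segmentation and 1 colour for each state. KO-NT shows the most U1, at 65.1% of bins, and the blocks of 88.2 and 94.2 kb that are U1 in all 4 rows stand out as broad light grey stretches.

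Marked sequence was uneven along the locus and followed a similar layout in the 4 segmentations. The 50 kb step from 38500001 had the most U3 in WT, 93.2% under both labels, while KO had 61.2% with NT and 88.4% with GS. The step from 38050001 was marked over 97.2% (NT) and 86.4% (GS) of its length in WT, and over 72.8% (NT) and 100% (GS) in KO. U2 was its most frequent marked state in all 4, and U4 made up 10.4, 6.8, 6 and 10.4% of it. The step from 37750001 held mainly U2, at 70.8% (NT) and 55.2% (GS) in WT, and 44% (NT) and 76.4% (GS) in KO, and its U3 share was 2% or less.

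The longest unbroken marked domains of the 4 segmentations overlapped. In WT the domain spanned 153.6 kb from 38051401 to 38205000 with NT and 113.4 kb from 38085801 to 38199200 with GS. In KO it spanned 57.2 kb from 38090201 with NT and 108.8 kb from 38049601 to 38158400 with GS. The 57.2 kb of KO-NT, which end at 38147400, were marked in all 4. The next domain common to all 4, 32.6 kb from 38916601 to 38949200, was 97.5% U3 in KO-NT. The longest single U3 segment in WT was 29.2 kb from 38269801 with NT and 37.8 kb from 38514601 with GS. In KO it was 16.6 kb from 38917001 with NT and 23.2 kb from 38514601 with GS. The longest marked domain and the longest U3 segment were both shortest in KO-NT, which is part of the contrast that chose the locus.

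Long unmarked blocks lay inside the locus. The stretch from 38711001 to 38805200 (94.2 kb) was U1 in all 4 segmentations, and the U1 segments that contain it measured 94.2 and 95.4 kb in WT (NT and GS) and 98.2 and 95.2 kb in KO. A further block from 37481401 to 37569600 (88.2 kb) was U1 in all 4, inside segments of 88.2 and 94 kb in WT and 130.6 and 94.2 kb in KO. Of the whole locus 601.4 kb were U1 in all 4, 317.6 kb were U3 in all 4 and 111.8 kb were U2 in all 4. Bins with a single state in all 4 made up 61.1% of the locus and 81.4% of the genome.

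The locus sits beside a long unmarked region. From 35 Mb to its start, chromosome 7 was marked over 54.5% (NT) and 54.97% (GS) in WT, and over 39.9% (NT) and 50.97% (GS) in KO. After its end the marked share was between 2.48 and 3.12% up to 40 Mb, and 0 bins were marked from 40 to 43 Mb in any segmentation. An unbroken U1 segment began at 39044801 in WT-NT and WT-GS, at 39066001 in KO-NT and at 39044601 in KO-GS, and ran for 8.88, 7.66, 7.63 and 7.66 Mb.

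**Figure D2:**
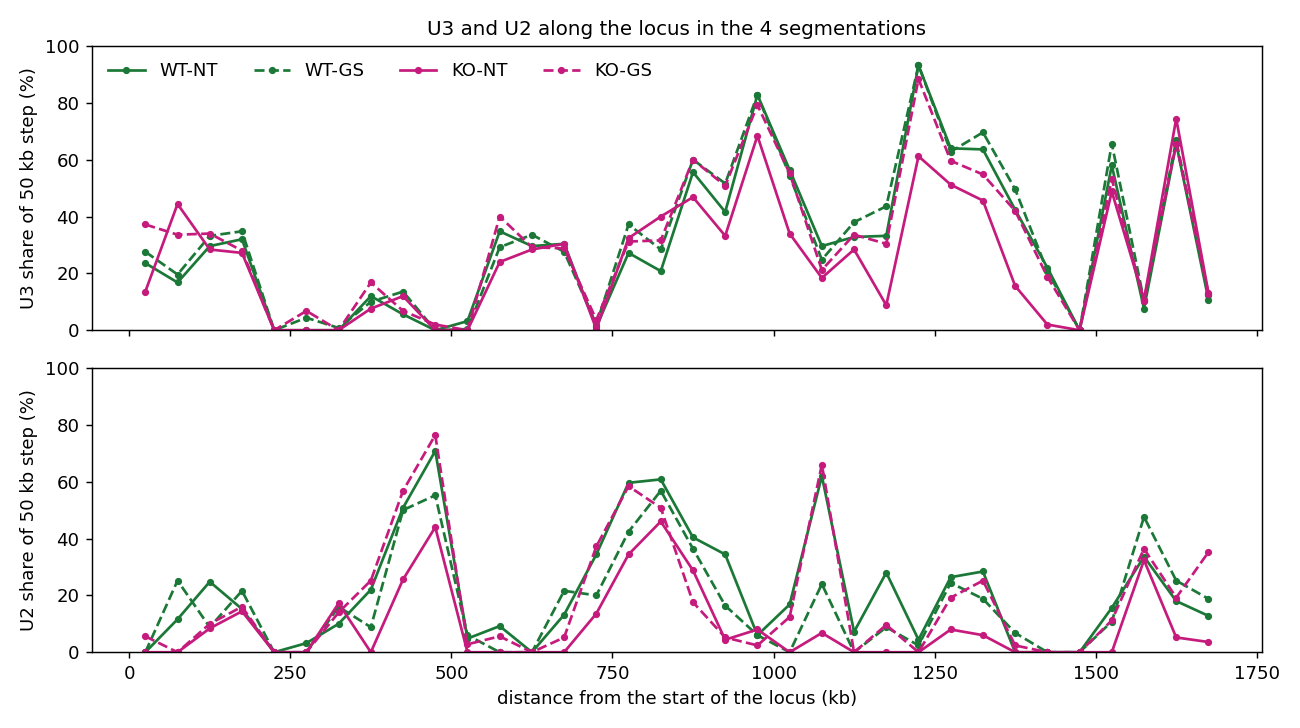
Share of each 50 kb step in U3 (upper panel) and U2 (lower panel) in percent, against distance from the start of the locus in kb. Lines are the 4 segmentations, green for WT and magenta for KO, solid for NT and dashed for GS. At the highest U3 step both WT lines are at 93.2%, KO-NT is at 61.2% and KO-GS at 88.4%.

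The first comparison asked how the states of the locus differed between GS and NT in WT cells, a contrast that was not used to choose it. In WT, U3 covered 2.44 percentage points more of the locus in GS and U2 4.28 points less, while U4 was 0.965 points lower and marked sequence 2.81 points lower. The U4 difference rests on short segments: it was -0.471 with 1 kb bins and -0.188 once segments under 1 kb were joined to a neighbour. State differed in 1785 of 8500 bins (21.0%, 357 kb), where 9.54% of all bins of the genome differed. Of the 1498 other windows, 1450 had a smaller share of differing bins, with a median of 9.92%, and 1362 had a lower U3 difference, with a median of 0.171 points. The locus also held more marked sequence than 83.8% of those windows in WT-NT, and how far that accounts for its share of differing bins was not tested.

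In WT, U3 in the locus was mostly kept and U2 less so. Of U3 bins in WT-NT 86.1% were U3 in WT-GS, against 80.4% over the genome. Of U2 bins 58.5% stayed U2, against 82.0% over the genome, while 28.9% were U1 in GS (genome 12.6%) and 11.4% were U3 (genome 4.29%). Of U1 bins 86.3% stayed U1, against 95.02% over the genome. Of the 233 U4 bins 38.6% stayed U4 and 45.9% were U3 in GS, against 53.4 and 34.6% over the genome.

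In WT, U3 appeared in 564 bins that were another state in NT and was replaced in 357 bins, 6.64 and 4.2% of the locus, where 2.08 and 1.54% of all bins of the genome did so. The 564 bins formed 132 runs with a median of 400 bp, of which 42 joined U3 segments of WT-NT on both sides, 60 touched U3 at a single end and 30 touched none. These are 31.8, 45.5 and 22.7% of runs, close to 33.0, 46.1 and 20.9% over the genome. U2 appeared in 387 bins and was replaced in 751 (genome 3.78 and 3.53% of all bins). The net difference in the locus was 41.4 kb more U3 and 72.8 kb less U2 in WT-GS.

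The 5 longest segments that differed between treatments in WT were all U2 in NT and U1 in GS. They lay at 38028201 to 38038200 (10.0 kb), 38363201 to 38373200 (10.0 kb), 38478201 to 38487400 (9.20 kb), 37674001 to 37681400 (7.40 kb) and 38346001 to 38352200 (6.20 kb). All 5 were U1 over their full length in KO-NT. In KO-GS the first was 94.0% U2, the second 100% U2, the fourth 73.0% U2 and the fifth 96.8% U2, and the third was 93.5% U1. In 4 of these 5 places, then, WT had U2 in NT only, and KO mainly had U2 in GS only. Of 356 differing segments in WT, 159 were a single bin and 9 were at least 5 kb long, which is 44.7 and 2.53% (genome 52.5 and 3.78%).

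U3 that appeared in WT-GS came in shorter pieces. The longest, 4.8 kb from 38669001 to 38673800, was U1 in WT-NT and in both KO segmentations. The next, 4.2 kb from 38473801 to 38478000, was U2 in WT-NT, U1 in KO-NT and 38.1% U3 in KO-GS. Of 3 further pieces of 3.4 kb, all of them U1 in WT-NT and in KO-NT, the one from 38608801 to 38612200 was 100% U3 in KO-GS, and those from 38205001 and 38825201 were 100% U1 there.

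The contrast that chose the locus, GS against NT in KO, is described next. In the last 1 Mb of the locus, which ends at 39000000, U3 made up 31.7% with NT and 40.1% with GS, 8.44 points more, the largest of 2644 windows. The next windows were on chromosome 11 from 52000001 (8.08 points) and on chromosome 14 from 33000001 (7.86 points), so the choice rests on a narrow margin. In WT the window held 40.4% U3 in NT and 43.7% in GS. Both WT values thus lay above that of KO-NT, and KO-GS lay close to WT-NT. This was not particular to the locus. The window on chromosome 11 held 41.0% (NT) and 43.6% (GS) in WT, and 31.8% (NT) and 39.9% (GS) in KO. The window on chromosome 14 held 37.0 and 41.0% in WT, and 29.8 and 37.6% in KO.

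Over the whole locus in KO, U3 was 6.35 points, U2 9.39 points and U4 1.4 points higher in GS. The U4 value fell to 0.529 in 1 kb bins and to 0.0824 once short segments were joined. Over the genome the KO differences were -0.541 points for U3, 0.516 for U2 and 0.815 for U4. Over the autosomes alone they were -0.0614, 0.426 and 0.843. State differed in 2056 bins (24.2%, 411.2 kb), where 11.2% of the bins of the genome differed. U3 appeared in 829 bins and was replaced in 289, 9.75 and 3.4% of the locus (genome 1.93 and 2.47%). Of the 829 bins, 752 (90.7%, genome 61.3%) were U1 in KO-NT, 57 were U2 and 20 were U4. U2 appeared in 918 bins, of which 838 (91.3%, genome 76.8%) were U1 in KO-NT, and was replaced in 120 (genome 4.26 and 3.75% of all bins). In total 324.4 kb were U1 in KO-NT and marked in KO-GS, and 33.0 kb were marked in KO-NT and U1 in KO-GS.

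**Figure D3:**
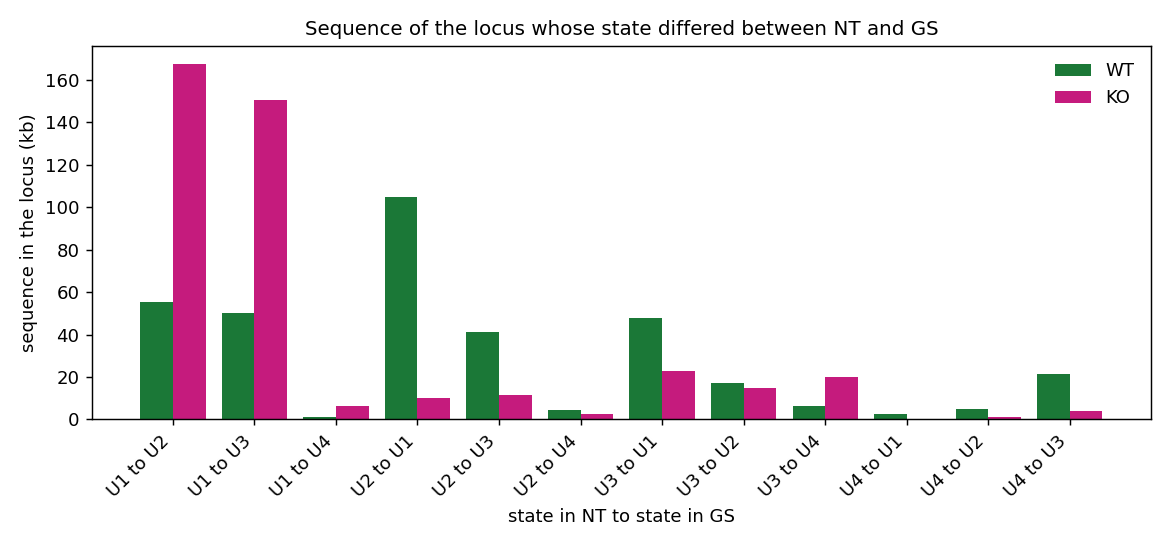
Length of sequence in the locus (y axis, kb) for each pair of states in NT and GS (x axis), in WT (green) and KO (magenta). In KO the bars for U1 to U2 (167.6 kb) and U1 to U3 (150.4 kb) stand out, and in WT the tallest bar is U2 to U1 (104.6 kb).

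U3 that appeared in KO-GS lay next to U3 already present in KO-NT more often than apart from it. The 829 bins formed 114 runs with a median of 1000 bp and a longest of 5600 bp. Of these runs 17 joined U3 segments of KO-NT on both sides, 67 touched U3 at a single end and 30 touched none. The corresponding shares, 14.9, 58.8 and 26.3% of runs, were 20.4, 47.5 and 32.2% over the genome. For U2, 41 of 61 runs (67.2%) touched no U2 of KO-NT, against 45.9% of such runs over the genome. KO-NT had less U2 to touch, 9.02% of the locus against 16.4% of the genome. How far that accounts for the share of runs was not tested.

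The longest differing segments in KO were U1 in NT and U2 in GS. The longest, 23.0 kb from 38356401 to 38379400, was 99.1% U2 in WT-NT and 67.0% U1 in WT-GS. The second, 10.4 kb from 37742201 to 37752600, was 92.3% U2 in WT-NT and 94.2% U2 in WT-GS. The third, 9.60 kb from 38028801 to 38038400, was 100% U2 in WT-NT and 97.9% U1 in WT-GS. The fourth, 9.40 kb from 38984601 to 38994000, was 100% U1 in WT-NT and 91.5% U1 in WT-GS. The fifth, 8.40 kb from 38346201 to 38354600, was 90.5% U2 in WT-NT and 71.4% U1 in WT-GS. WT-NT therefore carried U2 at 4 of these 5 places, and WT-GS mostly did so at 1.

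The longest segments that were U3 only in GS in KO were shorter. The 5.6 kb from 38593201 to 38598800 and the 5.6 kb from 38701401 to 38707000 were both 100% U3 in WT-NT, and 92.9 and 100% U3 in WT-GS. A further 5.6 kb from 38607201 to 38612800 were 39.3% U3 in WT-NT and 100% in WT-GS. The 5.00 kb from 37889601 to 37894600 were 100% U1 in WT-NT and 96.0% U1 in WT-GS. The 4.80 kb from 38297001 to 38301800 were 41.7 and 37.5% U3 in WT-NT and WT-GS.

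**Figure D4:**
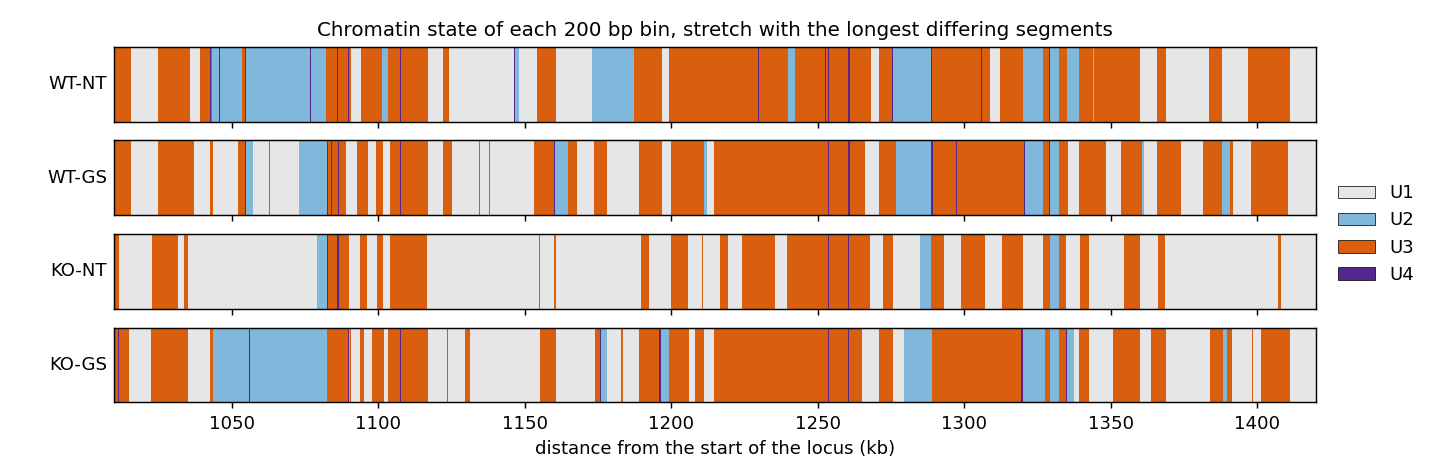
State of each 200 bp bin (x axis, distance from the start of the locus in kb) around the longest differing segment of KO, with 1 row for each segmentation. Several of the other long differing segments named in the text lie outside this part of the locus. The U2 block of 23.0 kb in KO-GS towards the left is U1 in KO-NT and 99.1% U2 in WT-NT.

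The rule that chose the locus did not use WT states, but these bins are set by the KO contrast that it used. Their WT states are therefore described only and support nothing. Of the 829 bins that were U3 in KO-GS and not in KO-NT, 62.0% were U3 in WT-NT and 65.0% were U3 in WT-GS, with 415 U3 in both. Of the 5547 bins of the locus that were U3 in neither KO segmentation, 5.86% were U3 in WT-NT and 6.76% in WT-GS. Over the genome the same shares were 45.9 and 52.5% for bins that were U3 in KO-GS only, and 0.919 and 1.09% for bins that were U3 in neither. Of the 918 bins that were U2 in KO-GS and not in KO-NT, 72.0% were U2 in WT-NT and 43.8% in WT-GS, where the genome gave 59.99 and 61.3%. Of the 289 bins that were U3 in KO-NT and not in KO-GS, 35.6% were U3 in WT-NT and 48.4% in WT-GS (genome 32.7 and 34.6%). Bins with U3 in KO-GS only were thus mostly U3 in each WT segmentation, and bins with U3 in KO-NT only were not. Over the genome the shares were likewise lower for bins with U3 in KO-NT only.

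Among bins whose state was not the same in all 4 segmentations, 3 combinations were the most frequent. U3 in both WT segmentations and in KO-GS with U1 in KO-NT covered 78.4 kb, 4.61% of the locus and 0.484% of the genome. U2 in those 3 with U1 in KO-NT covered 62.4 kb, 3.67% of the locus and 1.60% of the genome. U2 in WT-NT and KO-GS with U1 in WT-GS and KO-NT covered 51 kb, 3.00% of the locus and 0.413% of the genome. In all, 178.4 kb (10.5% of the locus, 2.52% of the genome) were U1 in KO-NT and marked in the other 3 segmentations. These values share KO-NT and KO-GS with the contrast that chose the locus.

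Between genotypes the locus differed more in NT than in GS. In NT, KO minus WT was -19.3 points for marked sequence, -12.3 for U2, -5.19 for U3 and -1.84 for U4, and 2367 bins differed (27.8%, genome 11.4%). Over chromosome 7 KO minus WT in NT was -4.17 points for marked sequence and 0.160 for U3, and over the genome -2.95 and 1.16. Over the autosomes alone it was -4.13 and 0.600. The NT comparison shares KO-NT with the contrast that chose the locus, and the GS comparison shares KO-GS with it. Neither is independent of that choice, nor is any pair of segmentations below that includes KO-NT or KO-GS. In GS, KO had 0.647 points more marked sequence, U2 was 1.39 points higher, U3 was 1.27 points lower (-1.27) and U4 0.529 points higher, and 1688 bins differed (19.9%, genome 10.1%). Over the genome KO minus WT in GS was -2.57 points for marked sequence, -2.88 for U2, 0.0761 for U3 and 0.235 for U4. Over the autosomes alone it was -3.33, -3.30, -0.169 and 0.147. Among the 6 pairs of segmentations, WT-NT and KO-GS had the most bins of the locus in the same state (81.4%) and WT-NT and KO-NT the fewest (72.2%). Over the genome the shares ran from 88.6% for WT-NT and KO-NT to 90.5% for WT-NT and WT-GS.

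The higher marked share of KO-GS was spread over the locus. Of 34 steps of 50 kb, marked sequence was higher in GS than in NT in 30 in KO, lower in 2 and equal in 2. This is the contrast that chose the locus, and such steps were not counted over the genome. Marked sequence in KO was also higher in GS over chromosome 7 (2.58 points) and over the genome (0.790 points). In WT it was higher in 12, lower in 18 and equal in 4. For U3 alone the KO steps were 22 higher, 8 lower and 4 equal, and the WT steps 21, 8 and 5. The largest U3 step in KO was the one from 38500001 (27.2 points), where the WT share was 93.2% under both labels. The next was that from 38650001 (26.4 points), where U3 was 42.4% (NT) and 49.6% (GS) in WT, and 15.6% (NT) and 42% (GS) in KO. Not all of the locus went that way: in the step from 37350001 U3 was 10.8 points lower in KO-GS than in KO-NT.

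**Figure D5:**
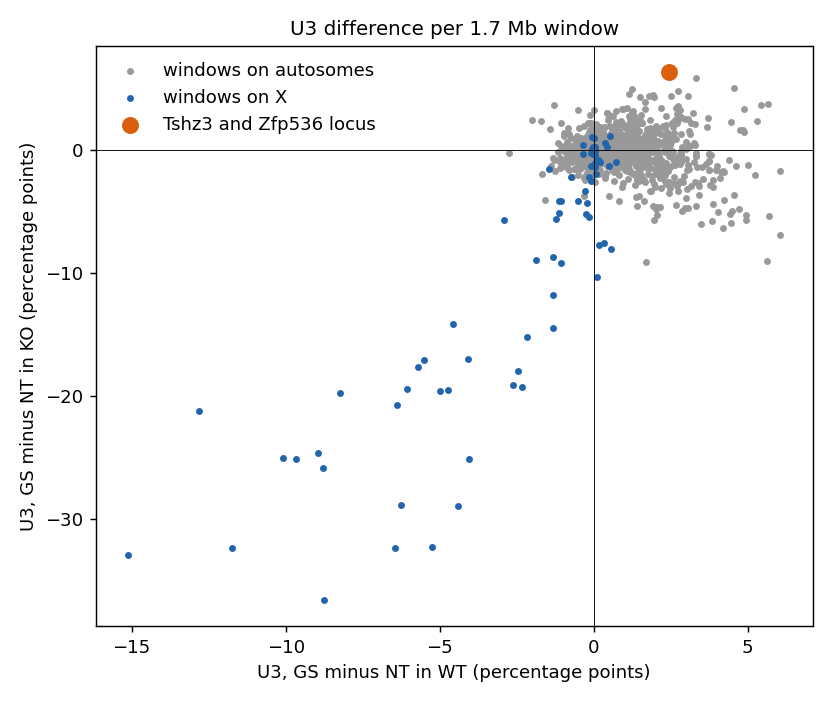
U3 share in GS minus that in NT, in percentage points, in WT (x axis) and KO (y axis) for windows of 1.7 Mb on autosomes (grey) and X (blue) and for the locus (orange). The locus lies at 2.44 in WT and 6.35 in KO, where the highest other window in KO is at 5.88. It was chosen for its KO value.

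U4 lay inside U3 and U2. Its segments had a median of 200 bp, a single bin, in each segmentation, and numbered 143 (NT) and 97 (GS) in WT, and 50 (NT) and 128 (GS) in KO. Of their borders 59.8, 68.0, 75.0 and 69.5% were with U3 and 38.1, 28.9, 22.0 and 27.7% with U2. Most U4 thus bordered U3, and KO-NT had the fewest U4 segments. Over the genome KO-NT also had the fewest, with 83794 against 119131 to 139844 in the other 3.

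No SIRT7 peak of either list lay in the locus. The GS list placed 164 of its 2671 peaks on chromosome 7 (1.08 per Mb), a density that gives 1.83 peaks in 1.7 Mb. A count of 0 allows up to 3 peaks, or 1.76 per Mb and 0.112% of the list, so a lack of GS peaks was not detectable in a stretch of this length. The NT list placed 4 of its 90 peaks on chromosome 7, which gives 0.0446 peaks in 1.7 Mb. These limits cover counting error only.

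The nearest GS peaks were far off, and the nearest peaks of both lists lay in U1. The nearest GS peak before the locus ran from 34848020 to 34849528 with the authors' score of 621, 2.45 Mb away, and the nearest after it from 48214047 to 48214816 with a score of 646, 9.21 Mb away. The nearest NT peak ran from 36510937 to 36511487 (score 585), 789 kb before the locus, where the median gap between NT peaks was 2859 kb. Each of these 3 peaks was U1 in all 4 segmentations, as were 64.6% of all bins of the genome. The GS peaks on both sides bound a gap of 13.4 Mb, the longest of 163 on chromosome 7 and the third longest of 2650 in the genome, where the median was 433 kb. The gap was 16.5% marked in WT-GS, with 10.3% U3, and it takes in the long U1 segment after the locus.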

How the data were processed

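Chromatin of MEFs was profiled by ChIP-seq for SIRT7, mH2A1 and H3K27me3. Tools listed without roles in the submitters' processing notes are deepTools 2.4.2, MACS 1.4.2, Bowtie, Trimmomatic 0.36, SAMtools 0.1.19 and FastQC 0.11.3, and the builds listed there are mm9 and hg19. Per the labels, each segmentation combines both replicates of H3K27me3 and mH2A1, and each SIRT7 list both replicates. The score of each peak is a whole number deposited by the authors, and its making is not described in the labels.

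Segments were expanded into 200 bp bins with Python 3.11.15 and numpy 2.4.6. Shares, pairs of states and runs of differing bins were counted in the locus, on chromosome 7, over the genome and in windows of 1.7 Mb, and the counting was tested on simulated data. Alternatives were 1 kb bins, segments under 1 kb joined to the longer neighbour, other limits of the locus, the upper 50% of peaks by score and an overlap of 50% in place of 1 bp. No test between conditions was possible. The members, lists and steps were chosen with earlier results of these data known. Sites named by rule were the 5 longest differing segments of each genotype and the nearest peaks. The 5 longest segments into U3, the longest domains and the 50 kb steps named were chosen after their values were seen. Lists of relatives, developmental genes and widely expressed genes, and the search for genes with similar states, were not used, because the gene table is on GRCm38.p6. The promoters came from RefSeq (GRCm38.p6).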

Additional observations from a re-analysis of the deposited data

Results flagged for a closer look

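Between NT and GS, 3 states of the locus differed in opposite directions in the 2 genotypes, and the difference between genotypes was not tested, since each genotype has 1 segmentation per treatment. The U1 share was 17.1 points lower in GS in KO (GS minus NT -17.1) and 2.81 points higher in WT. The U2 share was 9.39 points higher in KO and 4.28 points lower in WT (-4.28). The U4 share was 1.4 points higher in KO and 0.965 points lower in WT (-0.965). The U4 values rest on short segments: with segments under 1 kb joined to a neighbour they were 0.0824 in KO and -0.188 in WT, and in 1 kb bins 0.529 and -0.471. The KO values belong to the contrast that chose the locus, and over the genome KO-NT also had the least marked sequence. The opposite directions of U4 were not particular to the locus. Over the genome GS minus NT for U4 was 0.815 in KO and -0.382 in WT, and over chromosome 7 0.860 and -0.481. U2 also differed in opposite directions over chromosome 7, with 1.27 in KO and -0.373 in WT. Over the genome U1 was lower and U2 higher in GS in both genotypes.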

How the results depend on the processing

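Of 48 alternatives over 12 results none turned a direction, but the peak counts and the shares of differing bins have no direction to turn. A value moved beyond the counting interval of its bins in 19 alternatives, and that interval treats bins as independent and is therefore narrow. In KO, U3 in GS minus NT (6.35 points) was 8.44 in the 1 Mb window alone and 4.73 with the locus widened by 500 kb on each side, and marked sequence (17.1) was 20.96 and 14.8. The U3 difference KO minus WT in NT (-5.19) was -8.74 and -3.73 under the same limits, and that in GS (-1.27) was -3.58 in the 1 Mb window. U4 depended on short segments: in KO (1.4) it was 0.0824 with short segments joined, 0.529 with 1 kb bins and 1.96 in the 1 Mb window, and in WT (-0.965) it was -0.188 with short segments joined and -0.471 with 1 kb bins. The share of differing bins in KO (24.2%) was 23.2% with 1 kb bins, 23.1% with short segments joined, 28.3% in the 1 Mb window and 20.2% in the wider locus, and in WT (21.0%) it was 19.6% with short segments joined, 23.8% in the 1 Mb window and 18.7% in the wider locus. Peak counts stayed at 0. Other limits hold another stretch of sequence, and for the remaining settings the cause was not tested. The state at start sites was not run, because start sites were not placed on mm9. No paired analysis was possible because replicates were combined in the deposited files, for which reason no replicate could be left out either. Depth is unknown, so U1 cannot be told apart from sequence with too few reads.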
